A study of Mus musculus with 6 samples.

Results

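The 10 genes described here encode the 5 NF-kB subunits (*Nfkb1*, *Nfkb2*, *Rel*, *Rela* and *Relb*) and 5 proteins grouped here as inhibitors of the pathway (*Nfkbia*, *Nfkbid*, *Nfkbie*, *Nfkbiz* and *Tnfaip3*). They were chosen by name for their place in the pathway, out of 45777 genes in the deposited tables. CD4+Lrig1+ and CD4+Lrig1- T cells were sorted for bulk RNA sequencing from the spleens of female C57BL/6 mice at 7 weeks of age, with no treatment or transgene named for either group. The labels list 6 samples, 3 per group. The data analysed here are 4 libraries from 2 tables, each table with 1 CD4+Lrig1+ and 1 CD4+Lrig1- library (called set 1 and set 2). Nothing in the labels says which libraries came from separate mice, so p-values measure only the spread between these libraries, which may be technical. For every gene the estimated counts of its transcripts were summed and scaled by TMM to a library of 1000000 counts (CPM).

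NF-kB is a family of dimeric transcription factors. In resting cells most dimers are held in the cytoplasm by IkB proteins. Receptors for antigen, TNF and Toll-like ligands activate the IkB kinase complex, IkB is degraded and dimers of RelA, c-Rel and p50 enter the nucleus. In the slower noncanonical branch, p100 is processed to p52, which pairs with RelB. Several of the genes switched on encode inhibitors, which close a feedback loop. In regulatory T cells (Treg), c-Rel is known for its part in *Foxp3* expression during thymic development.

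The promoters of most genes with an entry in the RefSeq promoter table held the sequence that NF-kB is known to bind. This kB consensus is a run of G, a purine, any base, A or T, pyrimidines and a pair of C, 10 bases in all. It was searched on both strands in the 250 bases before each start site in that table (GRCm38.p6). Start sites without an entry, such as that of the *Nfkb2* transcript XM_006526743, were not searched. Of the 10 genes, 7 had an entry, with 12 start sites in all. A match lay before at least 1 start site of 6 of the 7 genes, against 4.46% of the 27025 genes in the table, and before 8 of the 12 start sites, against 3.90% of all 32851. The gene without a match was *Rela*. A match is a description of the letters and was not tested as a binding site. The last 130 bases before the outermost start site are printed for 1 subunit and 3 inhibitors, 5′ to 3′ on the gene's strand with the matches in capitals. They lie at chr11:23770970-23771099 (minus strand), chr12:55492648-55492777 (minus strand), chr17:45555570-45555699 (plus strand) and chr10:19015411-19015540 (minus strand).
Rel: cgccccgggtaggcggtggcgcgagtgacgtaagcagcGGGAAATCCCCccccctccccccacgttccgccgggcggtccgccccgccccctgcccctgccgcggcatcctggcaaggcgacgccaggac
Nfkbia: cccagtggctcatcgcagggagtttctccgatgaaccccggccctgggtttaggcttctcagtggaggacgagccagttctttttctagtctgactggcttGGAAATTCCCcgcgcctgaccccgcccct
Nfkbie: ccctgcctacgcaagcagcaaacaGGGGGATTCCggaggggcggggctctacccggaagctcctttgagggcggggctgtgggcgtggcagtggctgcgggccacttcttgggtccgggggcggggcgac
Tnfaip3: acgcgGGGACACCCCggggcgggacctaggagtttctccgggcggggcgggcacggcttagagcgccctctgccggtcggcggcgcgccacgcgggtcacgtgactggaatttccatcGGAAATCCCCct
In *Nfkbia* the match began 29 bases before the start site, in *Rel* 92 and in *Nfkbie* 106. *Tnfaip3* held a pair of matches, 125 and 12 bases before it. The *Rel* capitals cover overlapping matches on both strands.

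The libraries held 44865070 to 59977951 estimated counts on genes, and each of the 10 genes had at least 709 counts in every library. The sort was checked on *Lrig1*, at 221 and 129 CPM in CD4+Lrig1+ against 75.4 and 36.7 CPM in CD4+Lrig1- T cells (set 1, then set 2), and on *Foxp3*, at 589 and 615 against 48.9 and 30.7 CPM. Markers of T cells summed to 4657 to 6703 CPM in the 4 libraries. The sum of 10 B cell markers was 78.5 and 98.3 CPM in the CD4+Lrig1- and CD4+Lrig1+ libraries of set 1, but 775 and 391 CPM in those of set 2. Summed myeloid markers (8 genes) were 38.3 and 38.3 CPM in set 1 and 171 and 171 CPM in set 2, with genes that moved in opposite directions. *Csf1r* was 2.07- and 2.04-fold higher in CD4+Lrig1+ T cells and *Itgam* was at 0.43 and 0.31 of its CD4+Lrig1- level. Of the 18 genes on these lists none was at 0 in all 4 libraries. The 3 pDC markers summed to 15.2 and 35.9 CPM in CD4+Lrig1- and 4.69 and 2.91 CPM in CD4+Lrig1+ T cells, and the 2 CD8 markers to 19.5 and 97.2 against 14.1 and 51.6 CPM. Of 5 NK markers 4 were lower in CD4+Lrig1+ T cells in each set, and *Eomes* was 5.70- and 4.48-fold higher. In the fit with the set as a term, given below for the NF-kB genes, 12.8% of all genes tested were called lower and 14.6% higher. There 2 of 10 B cell, 2 of 8 myeloid, 3 of 3 pDC, 2 of 2 CD8 and 3 of 5 NK markers were called lower, and 1 myeloid and 1 NK marker higher. Several of these cell types also express NF-kB genes, and their part in the values was not tested.

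The first question was whether the NF-kB genes differ between CD4+Lrig1+ T cells, which had the higher *Foxp3* level, and CD4+Lrig1- T cells. All 10 genes had more mRNA in CD4+Lrig1+ T cells, whichever set was taken, by 1.06- to 1.84-fold in set 1 and 1.07- to 1.74-fold in set 2. The largest ratios over both sets were those of *Nfkbia* and *Nfkb2*, and the smallest was that of *Rela*. In bulk samples, more cells that express a gene and more mRNA per cell cannot be told apart. The median log2 fold change of the 10 genes was 0.57, against -0.04 over the 16123 genes tested. Of all genes tested, 36.0% had a ratio above 1 in both sets.

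Whether these differences passed a test depended on how the sets entered the model. With edgeR's quasi-likelihood test on the 4 libraries without a term for the set, 0 of the 10 genes were called at an adjusted p under 0.05 (lowest adjusted p 0.939, for *Relb*), 0 had an unadjusted p under 0.05, and 0% of all genes tested were called. At an unadjusted p under 0.05 that test gave 901 of all genes, and the DESeq2 Wald test without a block called 0 of the 10, against 1.61% of all genes called higher. When the table a library came from entered as a further term (the table block), the same edgeR test called 9 of the 10 higher and none lower, with *Rela* the exception. In that fit 14.6% of all genes tested were called higher and 12.8% lower. Among genes with a mean of at least 1000 counts, as all 10 have, 14.5% were called higher. The table block leaves 1 residual degree of freedom, and its variance is estimated with the help of all genes together. A small p-value from it therefore does not rest on the gene's own repeat across sets alone. At 2 libraries per group, the smallest p that exact permutation of one gene's libraries allows is 0.333. For 5 of the 10 genes (*Nfkb1*, *Nfkb2*, *Relb*, *Nfkbia* and *Nfkbie*) the lower CD4+Lrig1+ library exceeded the higher CD4+Lrig1- library, as for 14.3% of all genes tested.

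**Figure D1:**
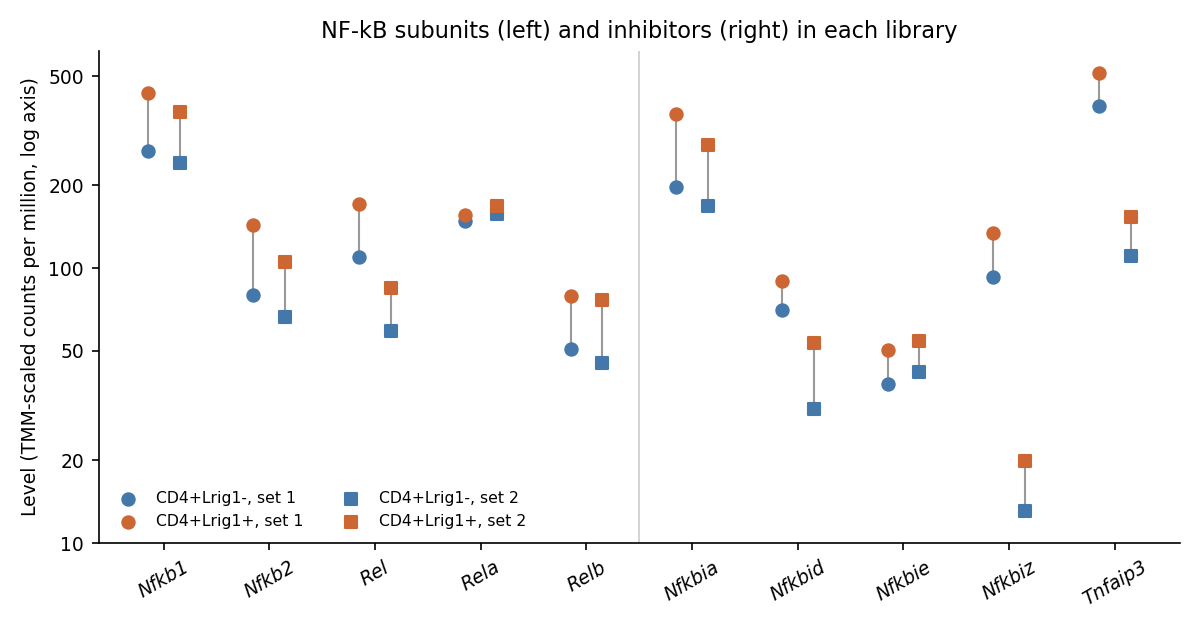
Level of each NF-kB gene in each of the 4 libraries (TMM-scaled CPM, log axis), with circles for set 1, squares for set 2 and a grey line joining the 2 libraries of a set. The CD4+Lrig1+ point is the upper one of every pair, the pair of *Rela* is almost closed, and the pairs of *Nfkbiz* and *Tnfaip3* lie far apart between sets.

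Among the subunits, *Nfkb1* (gene ID 18033, chr3:135584655-135691969 of GRCm38) encodes p105, the precursor of p50. It had 433 and 370 CPM in CD4+Lrig1+ T cells (401 ± 44.5, SD, n = 2) and 266 and 242 CPM in CD4+Lrig1- T cells (254 ± 17.1, n = 2). The groups did not overlap. The ratio was 1.63 in set 1 and 1.53 in set 2, and the log2 fold change with the table block was 0.66 (standard error 0.08, adjusted p = 0.00128 by edgeR's quasi-likelihood test).

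*Nfkb2* (gene ID 18034, chr19:46300994-46312400), which encodes p100, the precursor of p52 and itself an inhibitor of RelB, had 143 and 106 CPM in CD4+Lrig1+ and 80.2 and 66.3 CPM in CD4+Lrig1- T cells. Both CD4+Lrig1+ libraries were again the higher. Its log2 ratios of 0.84 and 0.67 were the largest of the subunits in set 1 and next to that of *Relb* in set 2, and the table block gave 0.76 (standard error 0.08, adjusted p = 4.49e-04 by the same test). RefSeq places 2 other genes over this locus, *4833438C02Rik* with 2407 estimated counts over the 4 libraries and *Psd* with 125, and how the authors' counting used strand is not given in the sources used here.

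*Relb* (gene ID 19698, chr7:19606217-19629438), the partner of p52 in the noncanonical branch, had 78.9 and 76.5 CPM against 50.8 and 45.4 CPM. The ratio was 1.55 in set 1 and 1.69 in set 2, with no overlap between groups. With the table block the log2 fold change was 0.69 (standard error 0.08, adjusted p = 6.91e-04, edgeR). Both genes of the noncanonical pair were thus higher in the CD4+Lrig1+ library of each set.

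*Rel* (gene ID 19696, chr11:23736847-23770969), which encodes c-Rel, had 171 and 84.7 CPM in CD4+Lrig1+ and 110 and 59.1 CPM in CD4+Lrig1- T cells. The CD4+Lrig1- library of set 1 lay above the CD4+Lrig1+ library of set 2, so the groups overlapped over the 4 libraries. Within sets the ratio was 1.55 and 1.43. The table block gave a log2 fold change of 0.58 (standard error 0.07, adjusted p = 0.00128, edgeR).

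*Rela* (gene ID 19697, chr19:5637442-5648134), which encodes p65, the main activating subunit of the canonical branch, had 156 and 169 CPM in CD4+Lrig1+ and 148 and 158 CPM in CD4+Lrig1- T cells. These values overlapped. The log2 ratios were 0.08 and 0.10, and the log2 fold change with the table block was 0.09 (standard error 0.07), which did not pass the test (adjusted p = 0.421, edgeR). *Rela* was also the subunit whose level differed least between the 4 libraries, at 163 ± 8.98 CPM (SD, n = 2) in CD4+Lrig1+ and 153 ± 6.95 CPM in CD4+Lrig1- T cells.

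Among the inhibitors, *Nfkbia* (gene ID 18035, chr12:55489409-55492647) encodes IkB-alpha, the classical feedback inhibitor of RelA and c-Rel dimers. It had the largest log2 fold change of the 10 genes in the fit with the table block. In set 2 the log2 ratios of *Nfkbid* and *Relb* were larger, and with limma on FPKM the value of *Nfkb2* was. *Nfkbia* had 364 and 281 CPM in CD4+Lrig1+ T cells (323 ± 58.7, SD, n = 2) and 198 and 168 CPM in CD4+Lrig1- T cells (183 ± 21.1, n = 2), with no overlap. The ratio was 1.84 in set 1 and 1.67 in set 2. The table block gave a log2 fold change of 0.81 (standard error 0.08, adjusted p = 4.65e-04, edgeR).

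*Nfkbie* (gene ID 18037, chr17:45555700-45563169), which encodes IkB-epsilon, had 50.6 and 54.5 CPM against 37.9 and 41.9 CPM. The log2 ratios were 0.42 and 0.38, under those of *Nfkbia*, and the groups did not overlap. The table block gave 0.40 (standard error 0.08, adjusted p = 0.010, edgeR).

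*Nfkbid* (gene ID 243910, chr7:30421731-30428749) encodes IkBNS, a nuclear IkB protein known to act with c-Rel on *Foxp3*. It had 90.1 and 53.5 CPM in CD4+Lrig1+ and 70.7 and 30.7 CPM in CD4+Lrig1- T cells, and the groups overlapped across sets. Its log2 ratio was 0.35 in set 1 and 0.80 in set 2, the widest gap between sets of the 10 genes. A term for a difference between sets would leave 0 residual degrees of freedom, so the gap was not tested. The table block gave 0.57 (standard error 0.11, adjusted p = 0.00931, edgeR).

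*Nfkbiz* (gene ID 80859, chr16:55811375-55838954), which encodes the nuclear protein IkB-zeta, had 134 and 19.9 CPM in CD4+Lrig1+ and 93.1 and 13.1 CPM in CD4+Lrig1- T cells. Within a set the CD4+Lrig1+ library was higher by 1.44- and 1.51-fold, although both libraries of set 2 lay far under both of set 1. The table block gave a log2 fold change of 0.56 (standard error 0.08, adjusted p = 0.00179, edgeR). Without the block the value was 0.54 with a standard error of 1.33.

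*Tnfaip3* (gene ID 21929, chr10:19000910-19015410) encodes A20, a ubiquitin-editing enzyme that shuts off signalling above the IkB kinases. It had 515 and 153 CPM in CD4+Lrig1+ and 390 and 111 CPM in CD4+Lrig1- T cells, again with a gap between sets and the CD4+Lrig1+ library higher in each. The log2 ratios were 0.40 and 0.47, and the table block gave 0.43 (standard error 0.08, adjusted p = 0.00738, edgeR). Without the block the standard error was 0.92.

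**Figure D2:**
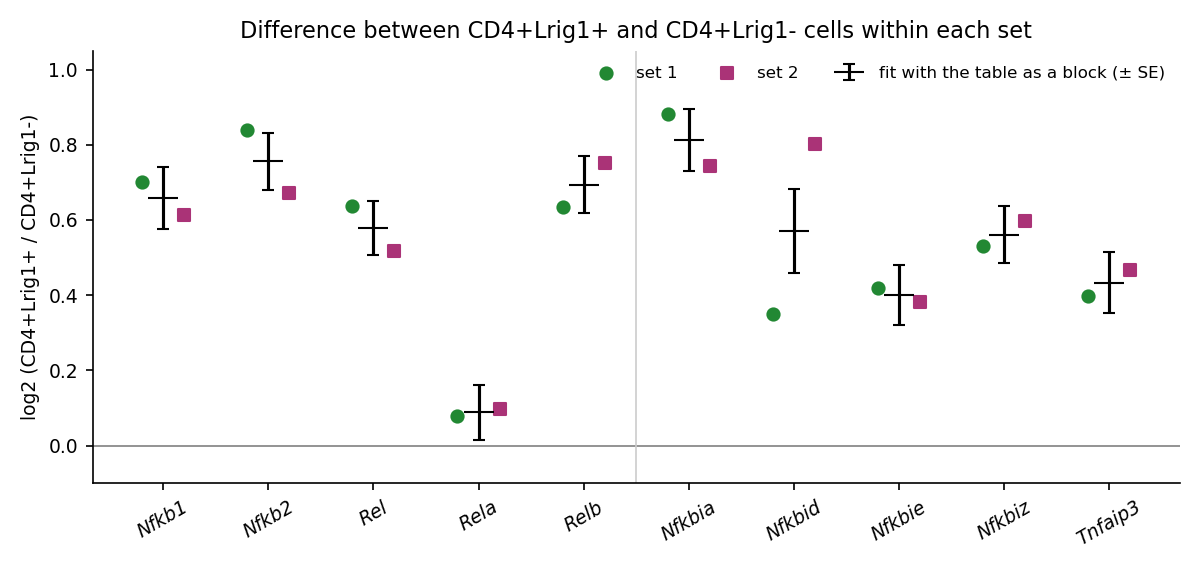
Log2 ratio between CD4+Lrig1+ and CD4+Lrig1- T cells in set 1 (circles) and set 2 (squares) for each NF-kB gene, with the log2 fold change of the fit with the table block and its standard error (black). Every point lies above 0, *Rela* is the lowest at 0.08 and 0.10, and *Nfkbid* has the widest gap between sets.

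Compared per transcript length, as FPKM (fragments divided by transcript length and by library size), *Nfkb1* took a larger share of the subunit mRNA in CD4+Lrig1+ T cells and *Rela* a smaller one. *Nfkb1* and *Rela* together held most of the subunit mRNA in every library. *Nfkb1* took 40.9% and 40.4% of the summed subunit FPKM of CD4+Lrig1+ T cells in sets 1 and 2, and 36.5% and 35.6% in CD4+Lrig1- T cells. *Rela* took 22.1% and 27.5% against 30.5% and 37.1%. The ratio of *Nfkb1* to *Rela* FPKM was accordingly 1.85 and 1.47 in CD4+Lrig1+ and 1.20 and 0.96 in CD4+Lrig1- T cells, and these values do not overlap. *Rel* was the lowest subunit in each library by FPKM, at 22.1 and 10.2 in CD4+Lrig1+ and 14.2 and 6.68 in CD4+Lrig1- T cells. *Nfkb2* and *Relb* lay close together between these, and their order differed between the sets, with *Nfkb2* above *Relb* in both libraries of set 1 and below it in both of set 2.

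Among the inhibitors the order by FPKM was led by *Nfkbia* and then *Tnfaip3* in every library. *Nfkbia* stood at 222 and 161 FPKM in CD4+Lrig1+ and at 120 and 89.7 FPKM in CD4+Lrig1- T cells, and it was the most abundant of the 10 genes by this measure in each library. Its ratio to *Rela* was 3.86 and 2.77 in CD4+Lrig1+ and 2.24 and 1.75 in CD4+Lrig1- T cells, while its ratio to *Nfkb1* was 2.09 and 1.88 against 1.87 and 1.82. The 5 inhibitors summed to 430 and 241 FPKM in CD4+Lrig1+ and to 276 and 140 FPKM in CD4+Lrig1- T cells. The 5 subunits summed to 260 and 212 against 176 and 138 FPKM. Inhibitor over subunit FPKM was 1.65 and 1.14 in CD4+Lrig1+ and 1.57 and 1.02 in CD4+Lrig1- T cells, so this ratio differed more between sets than between groups. It compares the mRNA of 2 lists and is not a measure of inhibition, as p100, counted with the subunits, is itself an inhibitor.

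**Figure D3:**
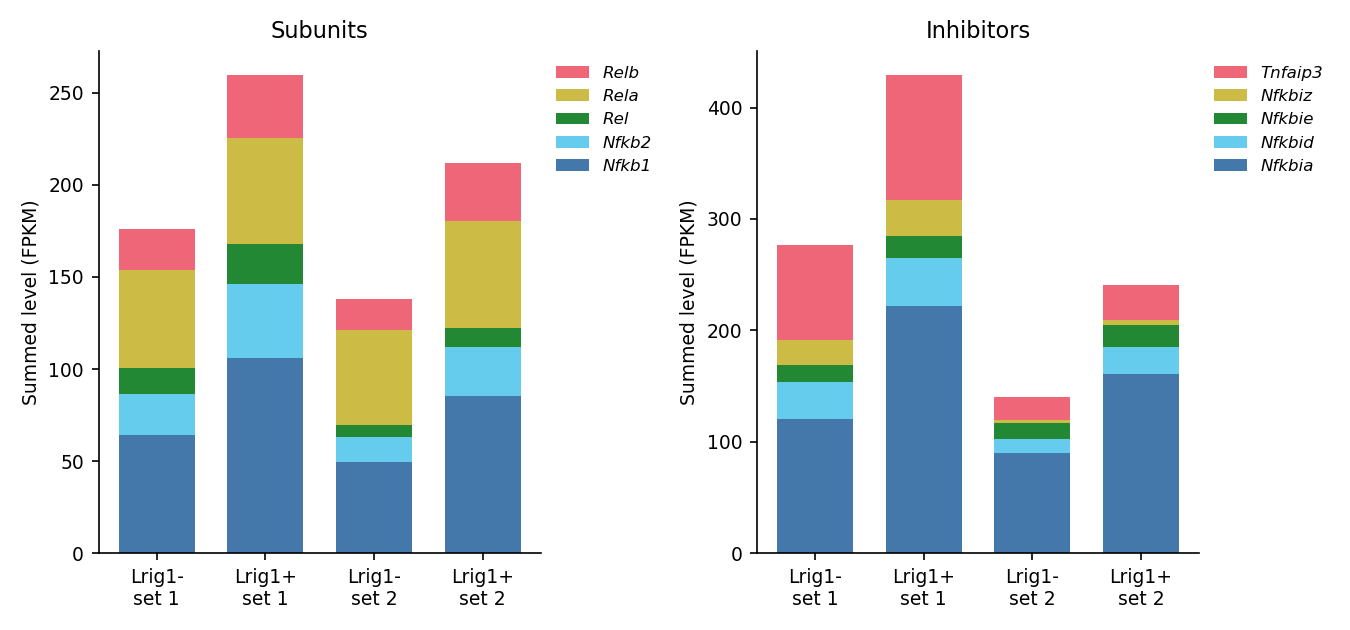
Summed FPKM of the 5 subunits (left) and the 5 inhibitors (right) in each library, with each bar split by gene. The CD4+Lrig1+ bar is the taller one in each set and panel, and the *Tnfaip3* and *Nfkbiz* segments are much smaller in set 2.

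Some of the NF-kB genes differed more between the sets than between the groups. *Nfkbiz* was higher in set 1 than in set 2 by 7.09-fold in CD4+Lrig1- and 6.76-fold in CD4+Lrig1+ T cells, and *Tnfaip3* by 3.52- and 3.35-fold. *Nfkbid* was higher by 2.31- and 1.69-fold and *Rel* by 1.86- and 2.02-fold. The other 6 genes lay between 0.90 and 1.36 in both groups. Over the genes tested the median log2 ratio between sets was -0.0014 for the CD4+Lrig1- libraries and 0.05 for the CD4+Lrig1+ libraries. For *Nfkbiz*, 5.32% of the genes tested had a smaller of the 2 ratios at least as large, and for *Tnfaip3* 10.9%. For *Rel* this was 21.6% and for *Nfkbid* 24.4%.

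Immediate early genes, a class induced within minutes by stimulation or handling of cells, moved between the sets as well. Of 18 such genes listed, 14 were higher in set 1 in both groups. Over all genes tested, 43.8% had a smaller of the 2 log2 ratios at least that of *Relb* (0.045). For *Rela* (-0.11) this was 49.3%, and the share of all genes higher in set 1 in both groups lies between these. The sum of the 18 genes was 1.45-fold higher in set 1 in CD4+Lrig1- and 1.50-fold higher in CD4+Lrig1+ T cells. Between groups this sum had log2 ratios of 0.09 and 0.04, but single genes differed. With the table block 7 of the 18 were called higher and 3 lower in CD4+Lrig1+ T cells, beside 14.6% and 12.8% of all genes. *Egr2* was 3.31- and 3.69-fold higher and *Dusp1* 1.98- and 2.57-fold, while *Jun* was at 0.85 and 0.62 of its CD4+Lrig1- level. These 6 marker and immediate early genes were named after their values were seen. The part of cell handling in the set difference was not tested. The 4 genes high in set 1 kept their direction between groups in both sets, as given above.

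**Figure D4:**
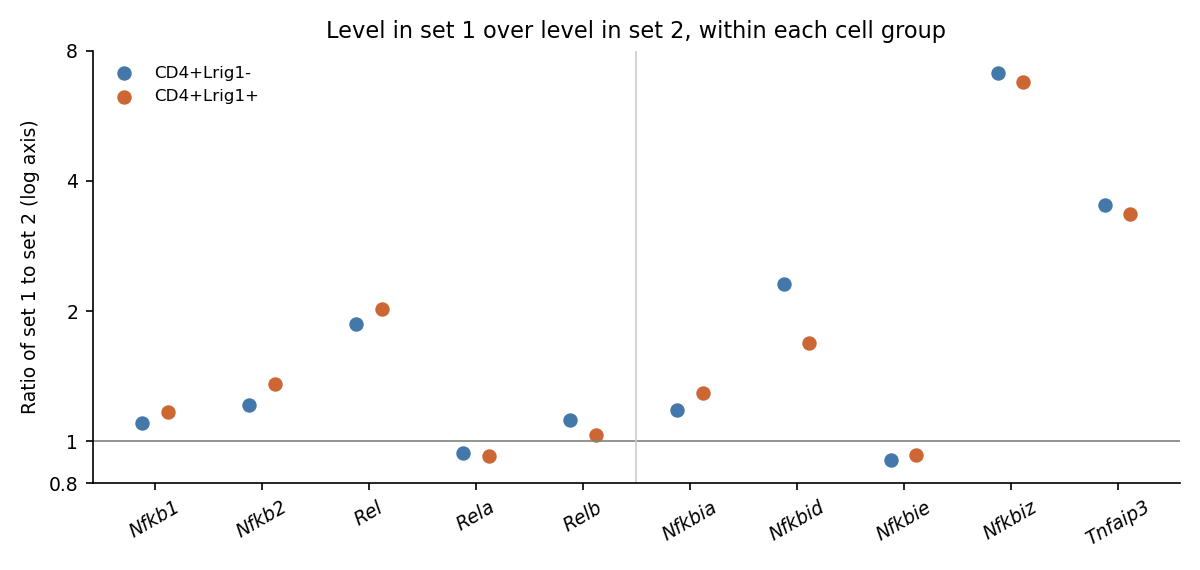
Level in set 1 over level in set 2 for each NF-kB gene (log axis), in CD4+Lrig1- (blue) and CD4+Lrig1+ (orange) T cells. *Nfkbiz* stands near 7 and *Tnfaip3* near 3.4 in both groups, and *Rela*, *Relb* and *Nfkbie* near 1.

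The tables list 35 transcripts for the 10 genes, of which 21 held at least 20% of their gene's counts in some library. Isoforms that overlap share reads, so the shares are estimates, given without a test. *Rel* (NM_009044) and *Nfkbia* (NM_010907) have 1 transcript each, so their values do not depend on this split. *Nfkb1* shows how far it can move. XM_006501107 held 80.0% and 83.7% of its counts in CD4+Lrig1+ T cells, 64.4% in the CD4+Lrig1- library of set 1 and 0.00765% (1 count) in that of set 2. There NM_008689 held 90.1%, against 1.90% to 9.14% in the other libraries, and the third transcript, XM_006501106, held 9.86% to 26.4%. The 3 transcripts share 1 end of the locus, at 135584655, and differ at the other, and the sum over them is the value used for the gene.

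*Nfkbid* differed between sets in the start of its transcripts. In set 1, NM_172142, which starts at position 30423275 of chromosome 7, held 54.1% of the CD4+Lrig1- counts and 39.9% of the CD4+Lrig1+ counts, but 9.35% and 4.69% in set 2. NM_001360906, which starts upstream at 30421731, held 27.0% and 44.5% in set 1 and 85.5% and 87.5% in set 2. In each set NM_001360906 had the larger share in CD4+Lrig1+ T cells, by more in set 1. XM_030242568, which starts close by at 30421736, had the smaller share there. It held 3.24% against 6.08% in set 1 and 1.14% against 4.16% in set 2. The direction for the upstream region as a whole is therefore not settled by NM_001360906. The 250 bases before the starts at 30423275 and 30421731 held no match to the kB consensus. Those before the start at 30422406 held a pair of matches, and its transcript NM_001360907 had at most 2.09% of the counts. Another start, at 30422340, lies between these matches and 30422406 and was not searched as an entry of its own. Its transcripts XM_030242569 and XM_030242570 held 0.302% to 3.82% and 0.362% to 9.04% of the counts.

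*Nfkb2* was spread over 4 transcripts with different start positions. NM_001177369 held 36.4% and 37.9% of its counts in CD4+Lrig1+ and 37.6% and 26.0% in CD4+Lrig1- T cells. NM_019408 held 13.3% to 25.2%, NM_001177370 16.5% to 22.1% and XM_006526743, the longest at 7110 bases, 20.1% to 42.9%. The library that stood apart was CD4+Lrig1- of set 2, with the highest share of XM_006526743.

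For the other genes 1 transcript led in most libraries. *Rela* NM_009045 held 43.7% to 92.3%, with NM_001365067 at 7.65% to 33.3% and XM_006531694 at 0.0423% to 33.9%. *Relb* NM_009046 held 63.2% to 82.0% and NM_001290457 9.01% to 20.5%. *Nfkbie* NM_008690 held 66.6% to 89.0% and NM_001304956 the rest. *Nfkbiz* NM_001159394 held 45.3% to 84.0% and XM_030249339 14.8% to 54.7%. *Tnfaip3* NM_009397 held 73.6% to 97.9%.

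The rest of the pathway was followed with 6 lists of 90 genes, of which 89 were tested. Without the block 0 of them passed edgeR's quasi-likelihood test at an adjusted p under 0.05 (19 at an unadjusted p under 0.05), and the DESeq2 Wald test called 9 higher. With the table block 33 were called higher and 16 lower, 40 being called in neither direction, beside the 14.6% and 12.8% of all genes. Their median log2 fold change with the block was 0.08, against 0.57 for the 10 genes and -0.04 for all genes. The values that follow are from the table block by edgeR's quasi-likelihood test.

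Both other IkB genes were called higher, as the 5 inhibitors were. *Nfkbib*, which encodes IkB-beta, had 45.4 and 46.4 CPM in CD4+Lrig1+ and 33.5 and 34.4 CPM in CD4+Lrig1- T cells (log2 fold change 0.44, adjusted p = 0.00794). *Bcl3*, a nuclear IkB protein that partners p50 and p52, had 49.4 and 46.5 against 31.6 and 29.8 CPM (0.64, adjusted p = 0.00147). Neither gene overlapped between groups.

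Among 18 receptors that signal to NF-kB, 7 were called higher, 4 lower and 7 neither. The largest differences were in *Tnfrsf4* (OX40), at 145 and 266 CPM against 16.2 and 12.6 CPM, and *Tnfrsf9* (4-1BB), at 125 and 246 against 11.1 and 16.2 CPM. *Tnfrsf1b*, the TNF receptor 2 of Treg cells, had 326 and 407 CPM against 89.9 and 114 CPM, and *Tnfrsf18* (GITR) had 125 and 208 against 38.9 and 56.5 CPM. These 4 receptors had log2 fold changes of 3.78, 3.72, 1.85 and 1.78, with no overlap between groups.

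The adaptors and kinases between receptors and IkB differed less. Of 16 adaptors, 2 were called higher and 2 lower. *Traf1*, itself a known NF-kB target, was higher by 0.96 and *Traf2* by 0.31 on the log2 scale. *Malt1*, which encodes a protease of T cell receptor signalling, was lower, with a log2 fold change of -0.32. Of 11 kinases, 1 was called higher and 3 lower. *Map3k8*, which encodes the kinase Tpl2 held by p105, had 19.3 and 10.6 CPM against 8.35 and 4.72 CPM, a log2 fold change of 1.19. *Map3k14*, which encodes NIK, the kinase that starts p100 processing, had 84.5 and 51.1 CPM in CD4+Lrig1+ against 119 and 83.4 CPM in CD4+Lrig1- T cells (log2 fold change -0.60, adjusted p = 0.00163). So the gene for NIK and those for its downstream pair, *Nfkb2* and *Relb*, had opposite directions in both sets. *Chuk*, which encodes IKK-alpha, was lower by a log2 fold change of -0.33, and *Ikbke* (-0.32) was not called (adjusted p = 0.101).

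In the list of ubiquitin and RNA feedback genes, 5 of 14 were called higher and 1 lower. *Tnip1*, which encodes a partner of A20, had 237 and 185 CPM against 157 and 115 CPM (log2 fold change 0.64), and *Otud7b*, which encodes a deubiquitinase of the noncanonical branch, had 74.2 and 60.6 against 47.6 and 41.7 CPM (0.59). *Tnip2* was higher by 0.50 and *Zc3h12a*, which encodes the RNase Regnase-1, by 0.43. *Tnip3* was named after its values were seen because it is the highest point of its list in the plot of pathway genes. Its log2 fold change of 4.7 rested on few counts, 2 and 4 in CD4+Lrig1- against 68 and 106 in CD4+Lrig1+ T cells (set 1, then set 2).

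Of 28 tested target genes out of 29 listed, 16 were called higher and 6 lower. The largest differences were in *Il2ra*, the alpha chain of the IL-2 receptor, at 368 and 417 CPM against 31.1 and 17.8 CPM, and *Csf1*, a macrophage growth factor, at 37.2 and 40.7 against 3.42 and 4.13 CPM. *Cd83* had 101 and 152 CPM against 9.67 and 27.3 CPM, and *Cxcl10* had 8.32 and 14.8 against 1.09 and 2.15 CPM. Their log2 fold changes were 4.05, 3.37, 2.90 and 2.85. Many genes of this list are also targets of other factors or markers of Treg cells, so its count is not a measure of NF-kB activity. The 8 listed Treg markers, *Il2ra* among them, were each called higher in CD4+Lrig1+ T cells, with sums of 2446 and 2176 CPM against 235 and 152 CPM. The part of Treg content in the NF-kB differences was not tested.

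**Figure D5:**
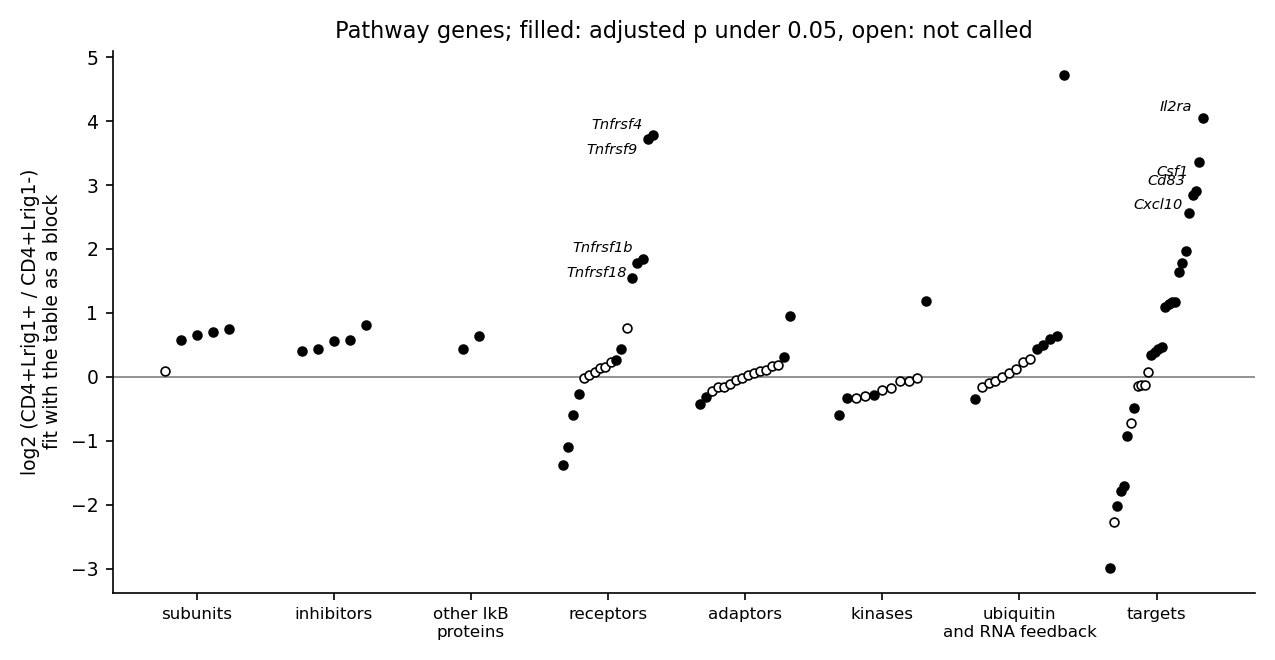
Log2 fold change (CD4+Lrig1+ over CD4+Lrig1- T cells, fit with the table block) of each tested pathway gene, ordered within its list, with filled points for an adjusted p under 0.05. Of the 10 subunits and inhibitors 9 are filled and lie between 0.40 and 0.81, while receptors and targets spread from -2.99 to 4.05.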

How the data were processed

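RNA was taken from sorted splenic T cells. Per the labels, reads were processed with Trimmomatic 0.38, HISAT2 2.1.0, Bowtie2 2.3.4.1 and StringTie 2.1.3b on GRCm38 (mm10). The estimated counts were deposited per transcript and are not normalized. The FPKM values, scaled by the authors for transcript length and mapped fragments, were used as deposited for levels between genes. A further 10 columns of per-sample values were not used, among them a table whose column names give no group.

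Estimated counts were rounded and summed over 129299 transcripts to genes. In R 4.3.3, edgeR 4.0.16 (filterByExpr, TMM, quasi-likelihood test, Benjamini-Hochberg over 16123 genes) gave the tests, and DESeq2 1.42.0 and limma 3.58.1 served as alternatives. A prior count of 2 was added for the log2 ratios of a set. The fits were also run on simulated data, and the outcome is not reported here. Tables were made in Python 3.11.15. Genes and lists were chosen with earlier results of these data known. Pathway genes were named by rule, up to 4 per list with a mean of at least 50 counts and the same direction in both sets, by the size of the mean log2 ratio, and 1 gene that the rule names is not reported here. Promoters are from RefSeq (GRCm38.p6).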

Additional observations from a re-analysis of the deposited data

How the results depend on the processing

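The table block decided the calls. Of the 10 NF-kB genes, 9 were called higher with the table block in edgeR, 9 with DESeq2 and the block, 9 with DESeq2 size factors and the block and 8 with limma on log2(FPKM + 1) and the block, where *Nfkbid* was lost (adjusted p = 0.0673). Under the other alternatives, leaving out each library included (0 to 0), 0 were called, and none was called lower under any alternative. The other pathway genes called higher numbered 33 with the block and 9 with the DESeq2 Wald test, and those called lower 16 with the block. Over all 16123 genes tested, edgeR's quasi-likelihood test called 0 without the block, and with it 2358 higher and 2056 lower. With the block, DESeq2 called 1848 of all genes higher, DESeq2 size factors gave 2208 and limma on log2(FPKM + 1) gave 1911. The exact test of edgeR without the block called 179 higher and 14 lower. When only the most abundant transcript was kept, *Rela* turned to -0.14, *Nfkb1* moved from 0.66 to 1.84, *Nfkbid* from 0.50 to 0.93 and *Tnfaip3* from 0.41 to 0.17. Without CD4+Lrig1+ of set 1, *Nfkbiz* turned to -1.41 and *Tnfaip3* to -0.70, and without CD4+Lrig1- of set 2 to -0.27 and -0.22. Without CD4+Lrig1- of set 1 they were 2.58 and 1.62. These fits compare libraries of different sets, between which both genes differ as given above. The other 8 genes had values above 0 in all 4 such fits, but *Rel* ranged from 0.02 (without CD4+Lrig1+ of set 1) to 1.15 and *Nfkbid* from 0.03 (without CD4+Lrig1- of set 2) to 1.27, both highest without CD4+Lrig1- of set 1, and *Rela* from 0.03 to 0.17. Shares of transcripts by FPKM moved by more than 1 SD for 6 values of *Nfkb2* and *Nfkbiz*. No paired analysis was possible because the columns carry no replicate numbers. The table block joins the 2 libraries of a table, which the labels do not say are from the same mice.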
